A study of Homo sapiens with 24 samples.

Results

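Chromosome 8 was examined through all peaks that the 24 FAIRE-seq peak lists place on it in hg19. The peaks were split at 45 Mb into the short arm, 8p, and the long arm, 8q, and were counted by summit in 2-Mb bins. The lists placed 226519 of their 4683186 peaks on chromosome 8 (4.84%), 57790 of them on 8p and 168729 on 8q. A list held from 3821 to 14758 chromosome 8 peaks. The arms were chosen because earlier work on these lists had shown fewer 8p peaks in RES-A than in LNCaP, so all differences between the sublines on chromosome 8 are given as descriptions, without a test. Tests were kept for the treatments and for depth, which did not enter the choice.

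FAIRE-seq, in which regulatory elements are isolated with the help of formaldehyde, sequences the DNA that stays free of protein crosslinks after phenol extraction, so that reads pile up over open chromatin. LNCaP is a human prostate cancer cell line that depends on androgen, and RES-A is a single line derived from it that resists enzalutamide (ENZ), an antagonist of the androgen receptor. Both sublines were held for 3 days in 5% serum stripped of steroids, with 10 µM ENZ in the medium of RES-A alone, and were then treated for 18 h. The treatments were the solvent DMSO, the androgen dihydrotestosterone (DHT) at 10 nM, ENZ at 10 µM, and the combination of both agents (DHT+ENZ). Subline and treatment made 8 groups of 3 libraries, which the study's methods call biological triplicates. Because every RES-A library came from cells kept in ENZ, subline and prior drug exposure cannot be told apart. The identity of the cells was not checked against marker genes, since the lists hold no gene names or expression.

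Chromosome 8 is among the chromosomes most often altered in prostate cancer, in which 8p is frequently lost and 8q frequently gained. The long arm carries MYC, a transcription factor that drives growth. In a FAIRE library the number of reads at a site depends both on how open the site is and on how many copies of the DNA the cells hold. Peak lists alone cannot separate these, and copy number was not measured here, so less DNA and less open chromatin cannot be told apart in what follows.

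The lists ran from 73254 to 275774 peaks. Depth was ranked by the genome-wide background, the smallest expected pileup the peak caller had used in a library, which ran from 0.41 to 5.99 reads per base. LNCaP DHT replicate 1 (0.74) and LNCaP ENZ replicate 1 (0.41) stood apart as shallow. Results that were recomputed without them and changed are given both ways.

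The share of a library's peaks that lay on 8p was lower in RES-A than in LNCaP, whereas the share on 8q was almost the same. On 8p the 12 LNCaP libraries ran from 1.51% to 1.65%, with a median of 1.55%, and the 12 RES-A libraries ran from 0.791% to 0.989%, with a median of 0.925%. The ranges lay far apart, and the mean fell from 1.57% ± 0.0413 to 0.918% ± 0.0568 (SD, n = 12 each), a ratio of 0.586. On 8q the LNCaP libraries ran from 3.48% to 3.803% around a median of 3.65%, and the RES-A libraries from 3.46% to 3.68% around a median of 3.52%. These ranges overlapped, and the ratio of the means was 0.969. LNCaP thus had 43.0 ± 1.65 peaks on 8p for every 100 on 8q and RES-A had 25.98 ± 1.97.

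**Figure D1:**
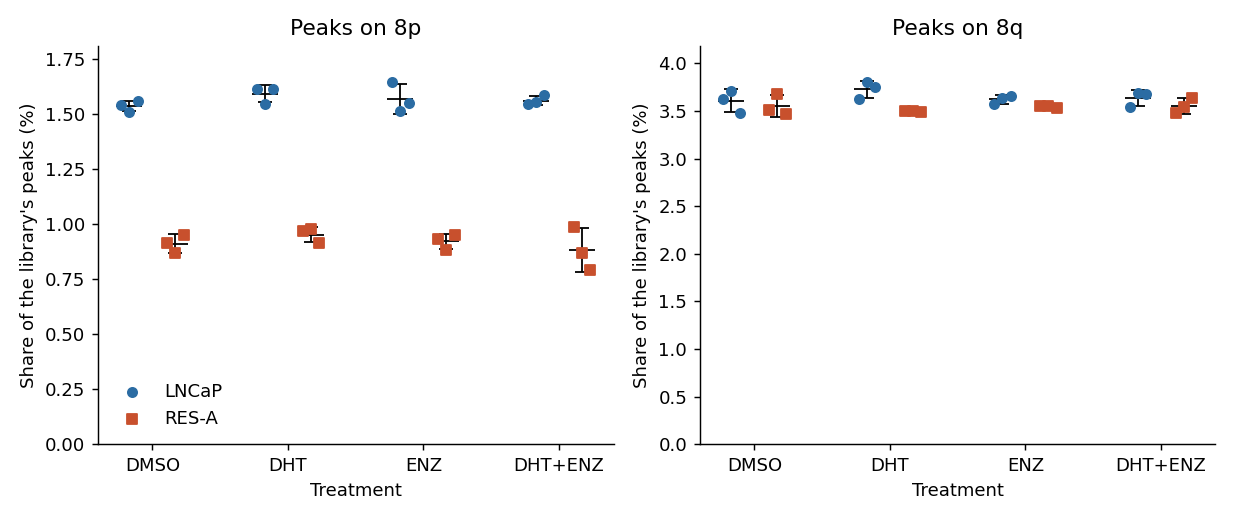
Share of each library's peaks on 8p (left) and 8q (right), in percent, by treatment, with LNCaP as blue circles and RES-A as orange squares. Points are libraries and bars are the mean ± SD of 3. On 8p all RES-A libraries lie below 0.99% and all LNCaP libraries above 1.51%, in every treatment.

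The gap on 8p had nearly the same size in each treatment. With DMSO the mean 8p share was 1.54% ± 0.0240 in LNCaP and 0.912% ± 0.0418 in RES-A (n = 3 each). With DHT it was 1.59% against 0.953%, with ENZ 1.57% against 0.923%, and with DHT+ENZ 1.56% against 0.884%. No RES-A library reached any LNCaP library of its treatment. On 8q the ranges overlapped with DMSO and with DHT+ENZ but were apart with DHT (3.73% against 3.497%) and with ENZ (3.62% against 3.54%). The widest spread was in RES-A DHT+ENZ, where the 3 libraries held 0.989%, 0.872% and 0.791%.

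Among the 22 autosomes ranked by the log2 ratio of mean shares, RES-A over LNCaP, chromosome 8 as a whole was the third lowest at -0.23. Chromosome 4 (-0.36) and chromosome 15 (-0.31) stood lower. Within chromosome 8 the log2 ratio was -0.77 on 8p and -0.045 on 8q.

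The 2-Mb bins showed that the lower share ran along nearly the whole of 8p. All 22 bins of 8p that held peaks had enough of them to be counted (a mean of at least 20 per library), and in 20 of them every RES-A library was lower than every LNCaP library. Across the genome 16.6% of 1463 bins were lower without overlap and 15.7% were higher without overlap. The 8p contrast chose the arm, so nothing is read from that difference. The median log2 ratio of the 8p bins was -0.83, and 79 of the 1390 bins outside chromosome 8 (5.68%) were at or below it. On 8q, 7 of 51 bins were lower without overlap, 6 were higher without overlap and 38 overlapped, with a median log2 ratio of -0.0072.

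The deepest fall on the chromosome was in the 8p bin from 14 to 16 Mb, which holds TUSC3, a subunit of the oligosaccharyltransferase. The bin held from 0.0433% to 0.0641% of a LNCaP library's peaks and from 0.00675% to 0.0142% of a RES-A library's, a mean of 107 peaks against 19.9 and a log2 ratio of -2.39. In 0.5-Mb steps the fall was concentrated from 14 to 15 Mb, where the log2 ratios were -4.02 and -4.37, and it was -0.71 with overlapping ranges from 15.5 to 16 Mb. Where TUSC3 lies among these steps was not examined, so the fall is not assigned to the gene. The bin from 34 to 36 Mb followed, with a mean of 57.0 peaks in LNCaP, 14.9 in RES-A and a log2 ratio of -1.99. The bin from 4 to 6 Mb was sparse in both sublines, with 32.4 and 12.6 peaks on average, and had a log2 ratio of -1.35.

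Only 2 bins of 8p had overlapping ranges. The outermost bin, from 0 to 2 Mb, held 0.0744% of LNCaP and 0.0628% of RES-A peaks (log2 -0.24). The bin from 20 to 22 Mb held 0.0365% and 0.0401% and was the only 8p bin with a higher mean in RES-A (log2 0.14). Within it the segment from 20.5 to 21 Mb stood out, with a share of 0.00399% to 0.00716% in LNCaP and 0.0103% to 0.0150% in RES-A (log2 1.14). The neighbouring bin from 18 to 20 Mb was lower in RES-A, at a log2 ratio of -0.68.

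**Figure D2:**
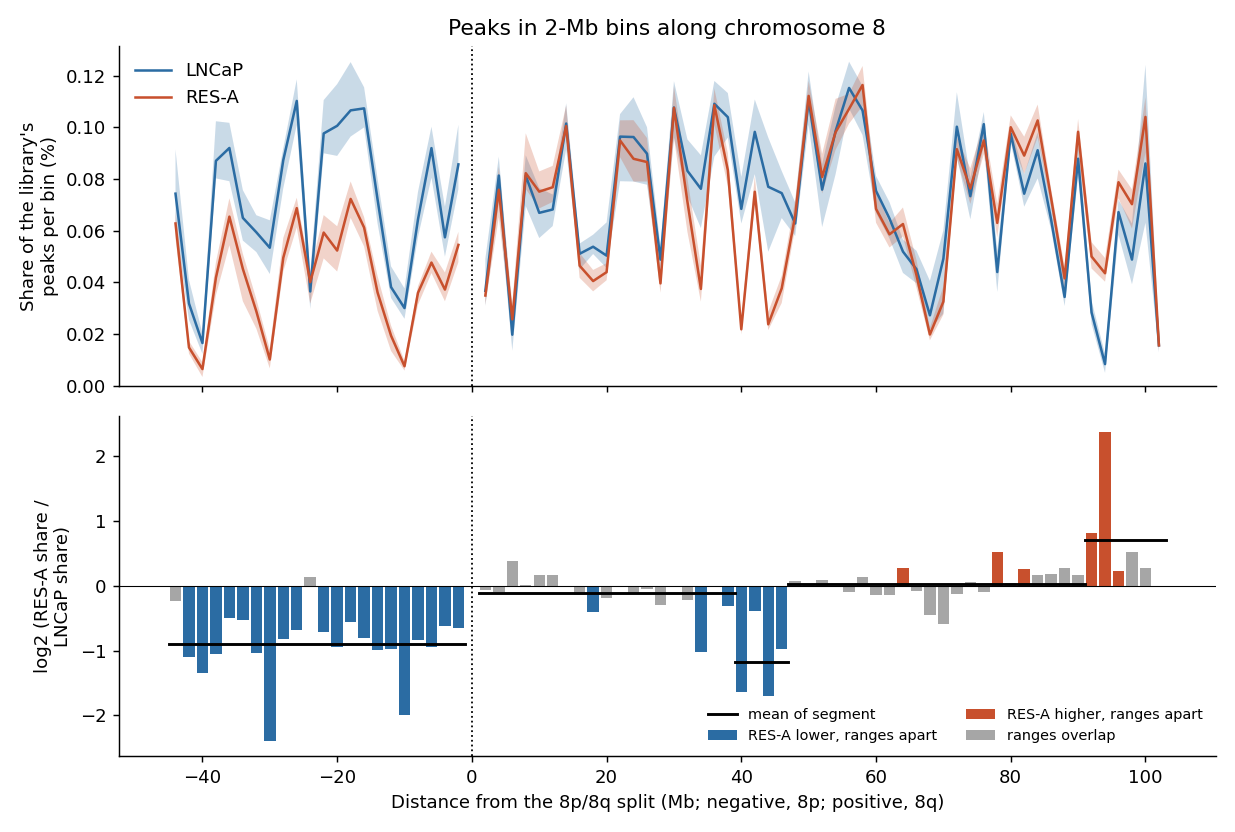
Top, share of the library's peaks per 2-Mb bin (percent; line, mean of 12 libraries; band, lowest to highest library) against distance from the 8p/8q split in Mb, for LNCaP (blue) and RES-A (orange). Bottom, log2 ratio of the mean shares per bin, coloured by whether the ranges of the sublines are apart, with black lines for the segment means, which are -0.89 on 8p and 1.18 below 0 in the segment 39 to 47 Mb into 8q.

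Bins of known genes were described from a list of 26 genes of chromosome 8, 13 on each arm, assigned to bins from general knowledge of hg19. All 13 genes on 8p lay in bins that were lower in RES-A without overlap. The bin from 26 to 28 Mb, with PPP2R2A (a subunit of protein phosphatase 2A), BNIP3L (a mitophagy receptor) and CLU (clusterin, a secreted chaperone), held a mean share of 0.107% in the LNCaP and 0.0723% in the RES-A libraries (log2 -0.56). The log2 ratio was -0.95 in the bin of FGFR1, a growth factor receptor, and -0.63 in that of KAT6A, a histone acetyltransferase. It was -0.997 for WRN, a DNA helicase, -0.68 for LPL, lipoprotein lipase, and -0.52 for GATA4, a zinc finger transcription factor. MCPH1, of the DNA damage response, and DLC1, a regulator of the cytoskeleton, lay in bins with -1.06 and -1.04. A bin describes 2 Mb and not the gene itself.

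Of the 13 genes on 8q, 11 lay in bins whose ranges overlapped. MYC and its neighbour PVT1, a long non-coding RNA, share the bin from 128 to 130 Mb, where the mean share was 0.0912% in LNCaP (0.0803% to 0.0981%) and 0.103% in RES-A (0.0962% to 0.109%). The ranges just overlapped there, at a log2 ratio of 0.17. The neighbouring bin of TRIB1, a pseudokinase gene, was higher in RES-A without overlap (log2 0.26), and the bin of E2F5, an E2F transcription factor, was lower without overlap (log2 -0.39). The bins of NCOA2 (a steroid receptor coactivator), YWHAZ (a 14-3-3 adaptor), ATAD2 (a coactivator of the androgen receptor) and PRKDC (a DNA repair kinase) had log2 ratios of -0.05, -0.10, 0.04 and -0.10. For RUNX1T1, a corepressor, the log2 ratio was 0.07, for OPRK1, the kappa opioid receptor, 0.17, and for the bin shared by TRPS1 (a GATA-type repressor) and RAD21 (a cohesin subunit) -0.13. PSCA, prostate stem cell antigen, lay in a bin with 0.52, where the ranges also overlapped.

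A least-squares fit of steps to the log2 ratios, with the number of steps chosen by the Bayesian information criterion, placed 4 change points, at 46, 84, 92 and 136 Mb. The first lies in the gap around the centromere. The last bin of 8p, from 42 to 44 Mb, had a log2 ratio of -0.65 (0.0857% against 0.0545%, ranges apart) and the first bin of 8q, from 46 to 48 Mb, had -0.07 (0.0368% against 0.0349%, ranges overlapping). The bin between them held no peak summit in any library, so this fit cannot place the step within that gap. The local background, described below, put its step at 48 Mb. The 4 positions were identical when any 1 of the 24 libraries was left out, at the stricter q of 0.01 and without the shallow libraries. Among the 50000 top-ranked peaks of each library they moved to 48 and 122 Mb, and in 1-Mb bins 6 were placed, at 14, 17, 46, 83, 92 and 136 Mb.

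With a single step allowed, the mean profile again changed at 46 Mb. The 12 RES-A libraries taken singly scattered, with 7 at 46 Mb, 4 at 92 Mb and 1 at 122 Mb. The pileup of shared regions, described next, put the single step at 46 Mb in 7 libraries and at 48 Mb in 5.

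The segments between these points differed in direction. From 46 to 84 Mb the share of peaks was 1.42% in LNCaP and 1.32% in RES-A, a ratio of 0.928, and from 92 to 136 Mb it was 1.65% and 1.696%, a ratio of 1.03. Between them, from 84 to 92 Mb, LNCaP held 0.269% to 0.357% and RES-A 0.146% to 0.168%, a ratio of 0.498 with ranges apart. The fall there was broken up. In 0.5-Mb steps the ranges were apart from 83.5 to 86 Mb (log2 ratios from -0.86 to -2.44), and the deepest fall lay from 90 to 90.5 Mb (log2 -2.80), whereas from 86.5 to 87.5 Mb the log2 ratios were -0.14 and -0.10. A narrow fall of the same kind stood apart at 78.5 to 79.5 Mb, with log2 ratios of -2.26 and -1.57.

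At the end of 8q, from 136 to 148 Mb, RES-A held more. The share was 0.224% to 0.313% in LNCaP and 0.339% to 0.375% in RES-A, a ratio of 1.42. The bin from 138 to 140 Mb contributed more to this than any other and was nearly empty in LNCaP, with a mean of 16 peaks against 85.5 in RES-A. Its share was 0.00504% to 0.0123% in LNCaP and 0.0403% to 0.0495% in RES-A, the highest log2 ratio of the chromosome at 2.37. The bin from 136 to 138 Mb followed at 0.82. The bins from 142 to 144 Mb (0.52) and 50 to 52 Mb (0.38) were also among the 5 highest, but their ranges overlapped, while that from 122 to 124 Mb (0.52) had ranges apart.

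The signal in regions that every library called was then compared, since the same regions are measured in all libraries and no peak is gained or lost. Of the merged regions, 419 on 8p, 995 on 8q and 27882 elsewhere were called in all 24 libraries. The pileup, the number of fragments over the summit, was divided by the library's median over all shared regions. On 8p the scaled median ran from 1 to 1.09 in LNCaP, with a median of 1.06, and from 0.583 to 0.627 in RES-A, with a median of 0.608. The ranges were apart and the ratio of the means was 0.575. On 8q it ran from 0.966 to 1.09 in LNCaP and from 0.957 to 1 in RES-A, with overlap and a ratio of 0.968.

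The groups of a subline lay close together on this measure. Over the 4 groups of a subline the mean scaled pileup on 8p ran from 1.03 (ENZ) to 1.08 (DHT) in LNCaP and from 0.605 (DHT+ENZ) to 0.613 (DHT) in RES-A.

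Region by region the lower pileup held almost throughout 8p. In RES-A it was lower in 411 of 419 shared 8p regions (98.1%), with a median log2 ratio of -0.79 and quartiles of -1.05 and -0.55. On 8q it was lower in 486 of 995 (48.8%), with a median of 0.01, and on the other chromosomes in 47.1%, with a median of 0.03. The depth of the fall depended on the scale. When pileup was divided by the genome-wide background instead, the ratio of RES-A to LNCaP was 0.762 on 8p and 1.28 on 8q, with overlapping ranges on both arms. The pileup on 8p relative to 8q in the same library does not depend on the scale. It was 1.04 ± 0.0283 in LNCaP and 0.618 ± 0.00841 in RES-A.

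Along the chromosome the shared regions traced a flatter profile than the number of peaks. A shared region must be called in all 24 libraries, which leaves out places where a subline has hardly any peaks. The bins from 4 to 6 Mb and from 138 to 140 Mb held none. The flatter profile is therefore not a comparison over the same places. The bin medians of the shared regions averaged -0.81 on 8p, and the step fit put change points at 46, 84 and 90 Mb. The outermost 8p bin was the least reduced on this measure, with a median of -0.34 over 20 regions, while the bin from 20 to 22 Mb, whose share of peaks was not lower, had a median of -0.81 over 12. The bin from 14 to 16 Mb, the lowest by peak number, held only 3 shared regions, with a median of -1.06. The first 8q bin, from 46 to 48 Mb, was intermediate at -0.40 over 20 regions although its share of peaks had hardly changed. From 84 to 92 Mb 32 of 41 shared regions were lower, with a median of -0.31.

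**Figure D3:**
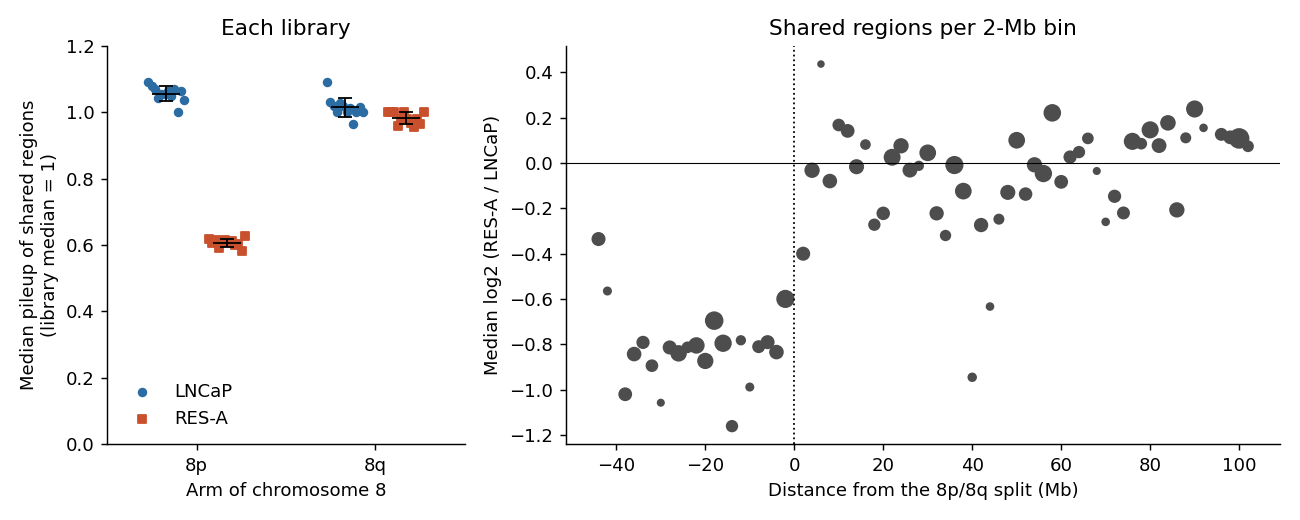
Left, median pileup of the regions called in all 24 libraries on 8p and 8q, in units of the library's median over all shared regions, with a point for each library and bars for the mean ± SD of 12. Right, median log2 ratio of RES-A over LNCaP per 2-Mb bin against distance from the split, with larger points for more regions. RES-A lies at 0.583 to 0.627 on 8p and at 0.957 to 1 on 8q.

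The expected pileup that the peak caller used at each peak carries a further readout. By default it takes the larger of the genome-wide background and the reads counted near the peak. It was recovered from pileup and fold enrichment. If the reads counted are those of the FAIRE library, a peak at the genome-wide background has no more reads around it than the genome average. The caller's options and any control library are not given, so this is assumed here. On 8p 18.5% to 33.5% of peaks were at that minimum in LNCaP (median 27.5%) and 62.1% to 71.5% in RES-A (median 65.3%). On 8q the shares were 14.01% to 23.9% in LNCaP and 17.9% to 25.1% in RES-A, and on the other chromosomes the means were 28.3% and 29.1%. Only 8p thus had ranges apart among these classes. The median local background of 8p peaks, relative to the genome-wide one, was 1.26 ± 0.0805 in LNCaP and was exactly at the minimum of 1 in all 12 RES-A libraries, below which the recovered value cannot go. On 8q it was 1.32 and 1.34.

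All 22 bins of 8p had a higher percentage of peaks at the minimum in RES-A than in LNCaP, against 22 of 51 on 8q. The same count was not made over the bins of the other chromosomes, so how unusual it is cannot be told. In the bin of FGFR1 the percentage was 16.6% in LNCaP and 60.5% in RES-A, and in the MYC bin 17.8% and 12.8%. In the bins from 34 to 36 Mb and from 4 to 6 Mb all RES-A peaks were at the minimum. The bin from 20 to 22 Mb, whose share of peaks was not lower, also moved, from 52.5% to 83.2%. The segment from 84 to 92 Mb went from 9.70% to 34.6%. The step fit to the local background gave 1 change point, at 48 Mb.

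**Figure D4:**
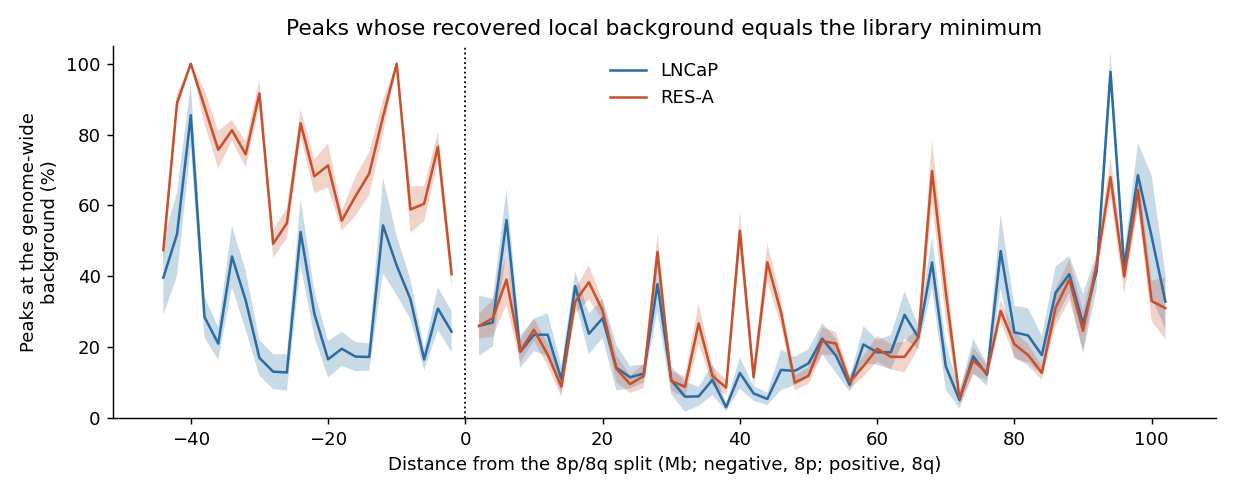
Percentage of peaks whose recovered local background equals the genome-wide minimum of the library, per 2-Mb bin, against distance from the 8p/8q split in Mb (line, mean of 12 libraries; band, ± SD). RES-A (orange) lies above LNCaP (blue) in all 22 bins of 8p, while the lines run together over most of 8q.

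The 8p peaks of the RES-A lists also had other median values, relative to those elsewhere, than the 8p peaks of the LNCaP lists. The median pileup of 8p peaks relative to that of the other chromosomes was 1.02 in LNCaP and 0.888 in RES-A, with 11 of 12 RES-A libraries below every LNCaP library. Fold enrichment went the other way, from 1.01 to 1.07, with 10 RES-A libraries above every LNCaP library. Among the 50000 top-ranked peaks the fall on 8p was deeper, with a log2 ratio of shares of -1.27 against -0.77 over all peaks.

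Few regions were present in all libraries of a subline and absent from all of the other. On 8p 18 of 9186 merged regions (0.196%) were called in 12 of 12 LNCaP and 0 of 12 RES-A libraries, against 0.0398% of all 744442 regions. On 8q there were 13 of 29870 (0.0435%). The reverse pattern was found at 21 regions of 8p (0.229%) and 164 of 8q (0.549%), against 0.599% in all. Of the 21 on 8p, 8 lay in the bin from 20 to 22 Mb, and of the 164 on 8q, 21 lay in the bin from 138 to 140 Mb and 12 in that from 136 to 138 Mb. The 12 LNCaP lists include the 2 shallow ones, of 73254 and 82224 peaks, whereas the shortest RES-A list held 169514. The part of the shallow lists in these counts, and in the excess of regions called in RES-A alone, was not tested.

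The regions named next are those with the highest mean significance of each kind. On 8p the regions called in LNCaP alone were chr8:41259102-41259708, with pileups of 4 to 113 (median 48.5), and chr8:14188541-14189395, with 8 to 123 (median 69.0). Those called in RES-A alone were chr8:639794-640279, with pileups of 30 to 79, and chr8:1728294-1728739, with 18 to 55. On 8q the LNCaP regions were chr8:85404304-85404969 and chr8:78750896-78751557, both in the stretches of lower share described above. The RES-A regions of 8q were chr8:139801949-139802375, with pileups of 62 to 155, and chr8:122613788-122614254, with 46 to 97. Genes at these positions were not analysed here, since no annotation of hg19 was used.

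Most regions that LNCaP called throughout were still called in RES-A on 8p, but fewer than elsewhere. Of 548 8p regions called in all 12 LNCaP libraries, 419 (76.5%) were called in all 12 RES-A libraries, against 90.2% of 1103 on 8q and 91.3% of 30555 on the other chromosomes. Retention rose with the LNCaP pileup. In the lowest quartile of pileup it was 47.2% on 8p, 77.9% on 8q and 80.6% elsewhere, and in the highest quartile 94.1%, 97.6% and 98.4%. In the reverse direction, 45.7% of 917 8p regions called in all 12 RES-A libraries were called in all 12 LNCaP libraries, against 29.7% of 3351 on 8q. On the other chromosomes it was 29.9% of 93250. A call in all 12 LNCaP libraries requires a call in both shallow lists, and their part in these percentages was not tested.

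**Figure D5:**
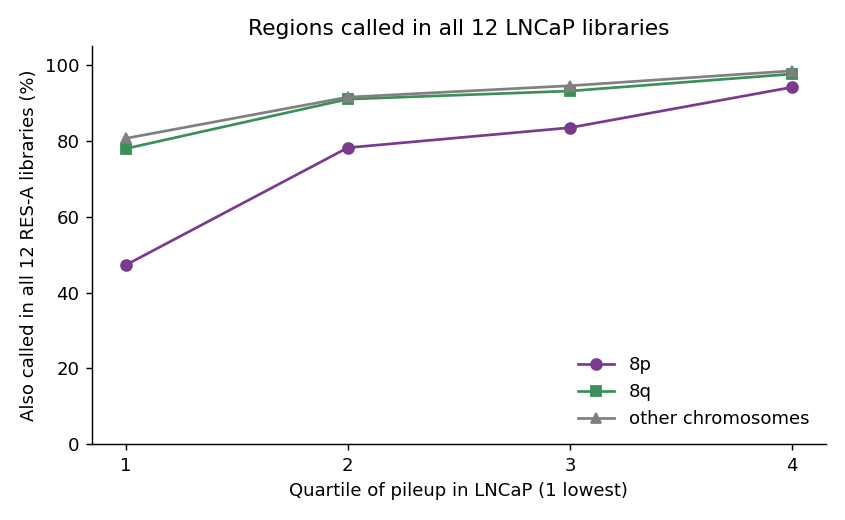
Percentage of the regions called in all 12 LNCaP libraries that were also called in all 12 RES-A libraries, by quartile of their LNCaP pileup, for 8p (circles), 8q (squares) and the other chromosomes (triangles). The 8p line runs from 47.2% in the lowest quartile to 94.1% in the highest and lies under the others throughout.

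The treatments asked whether androgen or its antagonist shifts the balance between the arms. No shift was detected in the log2 ratio of 8p to 8q peaks. In LNCaP the differences were 0.0027 for DHT minus DMSO (exact permutation p = 0.9), 0.022 for ENZ minus DMSO (exact p = 0.7) and 0.0074 for DHT+ENZ minus DHT (exact p = 0.9). In RES-A they were 0.087 (exact p = 0.2), 0.020 (exact p = 0.8) and -0.14 (exact p = 0.4). All 6 adjusted p-values were 0.9. With 3 libraries against 3 the smallest two-sided p is 0.1, so these tests could not have passed 0.05 and only the sizes are informative, against a gap of -0.73 between the sublines. The subline by treatment differences were 0.084, -0.0017 and -0.14, with adjusted permutation p-values of 0.5475, 0.995 and 0.5475.

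Bins were also tested one at a time by limma over all 1463 bins of the genome. None of the 73 chromosome 8 bins passed an adjusted p of 0.05 in any of the 6 contrasts, with a genome-wide share of called bins of 0.615% for DHT in LNCaP, 0.205% for DHT+ENZ minus DHT in LNCaP and 0.0% for the others. At an unadjusted limma p of 0.05, 6, 1 and 3 of the 73 bins passed in LNCaP, in the order given above. Over all 1463 bins 187, 47 and 77 passed. In RES-A 3, 0 and 5 of the 73 passed, against 53, 5 and 48 of all bins. None of the 73 passed in the 3 subline by treatment terms, where 3, 1 and 4 passed unadjusted, against 112, 18 and 54 of all. Without the 2 shallow libraries 48 bins of the genome were called for DHT minus DMSO in LNCaP, in place of 9. The subline by treatment term for DHT then called 2. No called bin lay on chromosome 8, where 10 bins passed unadjusted for DHT in LNCaP in place of 6.

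Among the 50000 top-ranked peaks DHT did change 4 bins of chromosome 8 in RES-A. They were 2 of 16 bins on 8p and 2 of 40 on 8q, against 3.48% of all 1093 bins. The bin from 24 to 26 Mb on 8p rose by 0.66 on the log2 scale (SE 0.09, limma adjusted p = 1.622e-05) and the bin from 36 to 38 Mb on 8p fell by 0.57 (SE 0.11, limma adjusted p = 0.005593). The latter rose by 0.55 when ENZ was added to DHT (SE 0.11, limma adjusted p = 0.02174). On 8q the bins from 48 to 50 Mb and from 80 to 82 Mb rose by 0.37 and 0.25 (limma adjusted p = 0.01051 and 0.03516). In LNCaP DHT changed 1 of the 40 bins on 8q and none of the 16 on 8p, against 2.38% of all bins. That bin, from 144 to 146 Mb, fell by 0.42 (limma adjusted p = 0.002794). The call in the bin from 36 to 38 Mb on adding ENZ to DHT was 1 of 16 bins on 8p, with none of 40 on 8q. It stood against 0.183% of all bins. That share was the same for ENZ minus DMSO and for DHT+ENZ minus DHT in LNCaP, where no chromosome 8 bin was called. No chromosome 8 bin passed the threshold for a difference in response between the sublines. That difference was 0.52 in the bin from 24 to 26 Mb (SE 0.13, limma adjusted p = 0.1269). With all peaks, the first 2 bins had log2 differences of 0.11 and -0.08 with adjusted p-values of 0.994.

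Regions that were called in all libraries of one treatment and none of the other were counted next. In RES-A 42 of 2571 8p regions (1.63%) were called in 3 of 3 DHT and 0 of 3 DMSO libraries, against 1.59% on 8q and 1.65% over all regions, and 46 (1.79%) showed the reverse, against 1.27% and 1.49%. In LNCaP 8 regions of 8p (0.125%) were gained, against 0.186% over all regions, and 27 (0.421%) were lost, against 0.47%. ENZ in place of DMSO gained 3 regions of 8p in LNCaP (0.0527%, against 0.046% over all) and lost 12 (0.211%, against 0.218%), and in RES-A it gained 14 (0.536%, against 0.349%) and lost 9 (0.345%, against 0.168%). Adding ENZ to DHT gained 42 regions of 8p in LNCaP (0.603%, against 0.709%) and lost 3 (0.0431%, against 0.0994%), and in RES-A it gained 26 (1.04%, against 0.729%) and lost 27 (1.08%, against 0.826%). Counts this small carry a wide counting error, and the arms were not tested against each other.

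The balance of gained and lost regions depended on how many peaks of each list were used. Among the 50000 top-ranked peaks DHT in LNCaP gained 27 regions of 8p (2.001%, against 2.17% over all) and lost 25 (1.85%, against 1.74%), where all peaks gave 8 and 27. Adding ENZ to DHT in LNCaP gained 18 (1.38%, against 1.3%) and lost 16 (1.22%, against 1.4%), where all peaks gave 42 and 3. The LNCaP DHT group of both comparisons holds the shallow replicate 1, whose list had 82224 peaks against 212064 and 275774 in the others, and its part in these counts was not tested. In RES-A the order turned for DHT, with 34 gained (5.61%, against 5.62%) and 21 lost (3.47%, against 3.42%).

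Over the 12 RES-A libraries the 8p share and log2 background had a Pearson's r of -0.717 (permutation p = 0.0076, adjusted p = 0.0304 over 4 relations) and a Spearman's correlation of -0.79 (permutation p = 0.00324, adjusted p = 0.00648). Leaving out the 2 libraries with backgrounds most unlike the median gave an r of -0.715. Among the 50000 top-ranked peaks the relation no longer passed the threshold, with an r of -0.476 (permutation p = 0.117, adjusted p = 0.156). In LNCaP the correlation was -0.632 (Pearson, permutation p = 0.0279, adjusted p = 0.0558) and -0.245 (Spearman, permutation p = 0.442), and r turned to 0.256 without the 2 shallow libraries, on which the relation rests. Among the top-ranked peaks it was 0.73 (adjusted permutation p = 0.0191) and fell to 0.0666 without the same 2. On 8q r was 0.572 in LNCaP (adjusted permutation p = 0.0718), where Spearman's correlation was 0.888 (adjusted permutation p = 0.00148), and 0.469 in RES-A (adjusted permutation p = 0.127). The 8p share ran from 0.791% to 0.989% within RES-A, and the mean background was 3.63 in LNCaP and 2.90 in RES-A with overlapping ranges. Without the 2 shallow libraries the log2 ratio of the 8p share between the sublines was -0.76, against -0.77 with them, and the part of depth in it was not tested further.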

How the data were processed

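The authors sequenced 50-bp single-end FAIRE-seq reads, and the submitters' processing notes name BWA 0.7.8-r455, Picard 1.118, MACS2 2.1.0 and hg19. Peaks were called in each library separately. The peak caller's options and any control library are not given in the sources used here. The deposited lists give, as the authors' peak caller wrote them, position, length, pileup (a signal, not scaled between libraries), −log10 of the p-value and of the q-value, and fold enrichment (a ratio). Read totals were not used here. The largest q was at 0.05.

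From these, the local background was recovered as (pileup + 1) / fold − 1, which assumes that the caller added 1. The genome-wide background was the smallest value in a library, and peaks within 0.2% of it were counted as at the minimum. Peaks were assigned by summit to 2-Mb bins, and bins with a mean of at least 20 peaks were kept. Merged regions joined peaks overlapping by at least 1 bp. Change points were fitted by least squares with segments of at least 3 bins and at most 6 steps, after an offset of 0.0001% was added to the share for single libraries. Treatments were compared by exact two-sided permutation tests and, over all bins, by limma 3.58.1 in R 4.3.3 on log2((n + 1) / (N + 1)), where n is the bin's peaks and N the list's. Benjamini-Hochberg adjustment was used throughout, over each family of contrasts or over all bins, and correlations used 100000 permutations. The scripts were tested on simulated data. Python 3.11.15 with pandas 2.3.3, numpy 2.4.6 and matplotlib 3.10.9 was used.

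The members, gene list, bins and tests were chosen with earlier results of these data known. Named bins were the 5 lowest and the 5 highest, those beside the split and each change point, those past a threshold and those of the 26 listed genes, of which 1 bin is not reported by gene here. The bins beside the change points at 84, 92 and 136 Mb are not all given singly. Named regions were, for each arm and direction, the 2 with the highest mean −log10 p among those called in all 12 libraries of 1 subline only. The bins called among the top-ranked peaks and the 0.5-Mb segments were singled out after their values were seen. Same-numbered libraries deviated together in 17 of 30 pairs at a correlation over 0.1 (range −0.38 to 0.76). Of the 6 treatment contrasts, all 3 pairs were over it in 2, DHT+ENZ minus DHT in LNCaP (0.31 to 0.51) and ENZ minus DMSO in RES-A (0.12 to 0.32), where numbers were taken to pair the samples; the labels give no shared source for them. No 2 lists held the same number of peaks. The reference given was GRCh38, so no gene coordinates or sequences were used. Intervals from counts were not computed, because peaks are not independent molecules.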

Additional observations from a re-analysis of the deposited data

How the results depend on the processing

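Of 675 values recomputed under alternatives, 624 were kept. Kept meant the same direction and side of the threshold, or a value within the spread between libraries. For limma bins it meant an equal or similar count of called chromosome 8 bins. These limma counts were 0 each time a single library was left out, so they could hardly change. Most of the 675 came from leaving out single libraries, which gave 504 values, of which 489 were kept. Of all 675, 29 reversed their direction. Leaving out each library in turn, the log2 ratio of RES-A to LNCaP stayed between -0.78 and -0.75 for the 8p share, -0.74 and -0.71 for the 8p to 8q ratio, and -0.81 and -0.79 for shared 8p pileup. The number of chromosome 8 bins with ranges apart was 33 over all libraries and from 33 to 37 without each in turn. It was 20 among the 50000 top-ranked peaks and 54 in 1-Mb bins. In limma the bins kept were 22 on 8p and 51 on 8q over all peaks. They were 16 and 40 among the top-ranked peaks and 38 and 97 in 1-Mb bins. The counts thus come from unlike numbers of bins, and genome-wide shares for the alternatives are not given here. With the top-ranked peaks the log2 ratio was -1.27 for the 8p share, -1.22 for the 8p to 8q ratio, -0.49 for the local background on 8p and 0.12 on 8q, from -0.77, -0.73, -0.33 and 0.01. The 8p background value was -0.22 with no 1 added and -0.13 over peaks above the minimum, an alternative that leaves out the peaks at it. Scaled to the genome-wide background, shared pileup gave -0.37 on 8p and 0.38 on 8q, in place of -0.80 and -0.05, and regions called in at least 20 libraries gave -0.71 and -0.0099. The causes were not tested.

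The treatment differences in the 8p to 8q ratio were too small to keep a sign. With top-ranked peaks DHT minus DMSO in LNCaP was -0.048, ENZ minus DMSO there -0.025, and the effect of adding ENZ to DHT in RES-A 0.0082. Without the shallow libraries, an alternative chosen after seeing the data, the LNCaP values were -0.028 and -0.023, and the ENZ interaction 0.043 (0.029 with top-ranked peaks). Adjusted for background, also chosen later, ENZ minus DMSO was -0.0025 in LNCaP and -0.0023 in RES-A, and DHT minus DMSO in RES-A -0.015. Leaving out each library, the ranges were -0.031 to 0.039, -0.023 to 0.058 and -0.028 to 0.038 in LNCaP, 0.027 to 0.14, -0.039 to 0.071 and -0.24 to -0.043 in RES-A for DHT, ENZ and DHT+ENZ, and -0.061 to 0.049 for the ENZ interaction. The top-ranked peaks called 1, 4 and 1 chromosome 8 bins for DHT in LNCaP, DHT in RES-A and DHT+ENZ minus DHT in RES-A, where all peaks called 0.

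For the relation with background, r with top-ranked peaks was 0.73 on 8p and 0.857 on 8q in LNCaP, and -0.476 and -0.0984 in RES-A, where the relation on 8p no longer passed the threshold. At a q of 0.01 it was -0.676 and 0.623 in LNCaP, both past the threshold, and without the shallow libraries 0.256 and 0.848. With the replicate number as a block, DHT minus DMSO kept its difference of 0.087 in RES-A with an exact sign-flip p of 0.5, where the smallest possible is 0.25, the 2 contrasts taken as paired had a p of 0.75 each, and the 8p share its log2 ratio of -0.77. With the block no chromosome 8 bin was called over all peaks, where the genome-wide count for DHT minus DMSO in LNCaP was 10 in place of 9. The top-ranked peaks with the block, chosen after seeing the data, called 1, 4 and 1 chromosome 8 bins, as many as without it.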
